A study of Homo sapiens with 8 samples.

Results

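The 10 genes described here act in the Hippo pathway of growth control and were read from an RNA-seq experiment on SH-SY5Y cells, a human neuroblastoma line with features of sympathetic neurons. They were the coactivators YAP1 and WWTR1, the DNA-binding factors TEAD1, TEAD2, TEAD3 and TEAD4, the kinases LATS1 and LATS2, and the scaffolds AMOTL1 and AMOTL2. The members were chosen by gene symbol, and each of the 10 symbols matched exactly 1 of the 47591 gene entries in the table. The experiment asked how the transcriptome differs when PRPF40B, a spliceosome-associated factor, is silenced. It holds 3 libraries of the G2 line, made by CRISPR/Cas9 editing aimed at PRPF40B, 3 libraries of the SCR line, which received the same machinery with a control guide, and 2 libraries of the unedited WT line. All lines were grown in DMEM with fetal bovine serum. G2 and SCR were also kept in puromycin, which WT was not, so SCR/WT holds the editing machinery, the drug and the selection together. G2 came from a colony raised by limiting dilution after puromycin selection, so a property of that colony and an effect of the guide cannot be told apart in these libraries. The labels call the libraries of a line biological replicates without naming separate cultures, and p-values here measure only the spread between these libraries.

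The Hippo pathway couples cell contact, cell shape and growth to transcription. The kinases STK3 and STK4 activate LATS1 and LATS2, which phosphorylate YAP (YAP1) and TAZ (the product of WWTR1), and the phosphorylated coactivators are held in the cytoplasm or degraded. When they are not phosphorylated they enter the nucleus, bind TEAD factors and raise transcription of genes such as CCN1, ANKRD1, LATS2 and AMOTL2. LATS2 and AMOTL2 therefore belong to the pathway's own negative feedback, and in neuroblastoma YAP1 is known from the mesenchymal rather than the adrenergic cell state. RNA-seq reads transcript levels and not phosphorylation or location, so the values below describe how much of each transcript was present.

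Values are normalized counts, which are read counts divided by a factor for the library's depth. They were not divided by gene length and compare libraries for 1 gene. Where genes were compared with each other, the normalized count was divided by the length of the gene's merged exons in kb. A gene was called different between lines when limma gave a p of 0.05 or less after Benjamini-Hochberg adjustment and the lines differed 1.5-fold or more, and log2 fold changes are of the normalized count plus 1. G2/SCR, G2/WT and SCR/WT share libraries, so they are not independent of each other. Since each library is bulk RNA, fewer cells with a transcript and less of it per cell cannot be told apart.

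The labels were checked on PRPF40B first. It lay at 840, 841 and 918 normalized counts in G2, at 1686, 1672 and 1669 in SCR and at 1972 and 1668 in WT. G2 held 866 ± 44.5 (SD, n = 3), below all 5 control libraries (two-sided exact permutation test, p = 0.018, the smallest that 56 groupings allow). Totals of recovered reads ran from 59804395 to 81080747 a library. Ribosomal RNA genes took 4.96% and 4.75% of the WT totals and no more than 0.587% elsewhere. The adrenergic markers PHOX2A, HAND2, GATA3 and DBH were present in every library, as was VIM, while TH did not pass 9 recovered reads in any G2 library.

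YAP1 and AMOTL2 were the 2 members called higher in all 3 comparisons, lowest in WT, higher in SCR and highest in G2. Their promoters are described first. A window here is the 250 bases before a RefSeq gene start in GRCh38.p14. Of the 10 members, 8 had at least 1 window, 12 in all, and none was read for TEAD1 and TEAD4. The core was searched as GGAATG and, on the other strand, CATTCC, and 11.9% of all 35114 windows hold it. It was in 2 of the 12 member windows, 1 of YAP1 and 1 of the 2 of AMOTL2, and this share was not tested against that of all windows. The windows of YAP1 and AMOTL2 are shown because they hold the core, in capitals, and the window of LATS2 because it is a known target of the pathway that changed in G2 and holds no such letters.
YAP1, chr11:102110197-102110446, plus strand: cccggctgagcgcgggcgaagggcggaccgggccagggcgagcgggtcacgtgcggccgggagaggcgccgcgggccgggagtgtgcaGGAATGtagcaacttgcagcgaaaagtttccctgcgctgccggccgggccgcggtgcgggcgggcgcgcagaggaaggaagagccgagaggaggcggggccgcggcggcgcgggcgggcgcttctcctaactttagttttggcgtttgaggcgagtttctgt
AMOTL2, chr3:134374448-134374697, minus strand: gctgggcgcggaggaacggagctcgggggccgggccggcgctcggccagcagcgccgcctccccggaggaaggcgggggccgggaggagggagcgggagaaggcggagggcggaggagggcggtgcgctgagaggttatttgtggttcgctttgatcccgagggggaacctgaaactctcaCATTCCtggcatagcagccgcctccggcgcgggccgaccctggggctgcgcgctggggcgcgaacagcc
LATS2, chr13:21061587-21061836, minus strand: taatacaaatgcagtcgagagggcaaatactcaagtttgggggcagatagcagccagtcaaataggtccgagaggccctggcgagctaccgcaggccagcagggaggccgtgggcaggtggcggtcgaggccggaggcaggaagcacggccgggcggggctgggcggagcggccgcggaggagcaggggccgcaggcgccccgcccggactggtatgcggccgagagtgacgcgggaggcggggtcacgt

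The core began 162 bases before the YAP1 start and 69 bases before this AMOTL2 start, the inner of its 2 RefSeq starts. The YAP1 window lies within an exon of an unnamed long non-coding RNA on the opposite strand, and the AMOTL2 core lies in the part of the window that GENCODE gives to an exon of other AMOTL2 transcripts. The AP-1 sequence TGACTCA, or TGAGTCA on the other strand, was in 0 of the 12 member windows and in 4.2% of all windows. A match is a stretch of letters and not a measured binding site, and its absence from 250 bases says nothing of a factor's binding elsewhere.

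YAP1 (entry GSHG0006673, chr11:102110447-102233424 in hg38), the main transcriptional coactivator of the pathway, rose at each step from WT to SCR to G2. It lay at 1653, 1868 and 1642 normalized counts in the G2 libraries, at 203.1, 250.6 and 206.3 in SCR and at 23.6 and 37.7 in WT. No library of a line overlapped another line. G2 averaged 1721 ± 127 (SD, n = 3), SCR 220 ± 26.5 (SD, n = 3) and WT 30.7 over its 2 libraries. The G2 mean was 7.82 times the SCR mean, with a log2 fold change of 2.97 (SE 0.16, limma adjusted p = 2.1e-08). It was 56.1 times the WT mean, with a log2 fold change of 5.80 (SE 0.18, limma adjusted p = 1.8e-10). The difference between the 2 control lines was nearly as large as that between G2 and SCR, with SCR 7.18 times WT and a log2 fold change of 2.83 (SE 0.18, limma adjusted p = 7e-07).

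WWTR1 (GSHG0031856, chr3:149517235-149736714), which encodes the YAP paralogue TAZ, was detected well only in the G2 libraries. It lay at 48.0, 49.3 and 75.2 normalized counts in G2, at 3.06, 1.88 and 0.756 in SCR and was listed at 0 in both WT libraries. The SCR values are 3, 2 and 1 recovered reads and sit under the floor of 9 reads, so the controls carried almost no signal. The ratio of G2 to SCR in fragments was 31.9, with a 95% counting interval of 8.41 to 270 that covers counting error only. Against WT the level in G2 was at least 5.72-fold higher. Both G2 comparisons passed the test (limma adjusted p = 0.00035 for G2/SCR and 8.5e-05 for G2/WT), and SCR/WT did not (limma adjusted p = 0.20). WWTR1 reached the filter for testing, a mean of 10 normalized counts over all libraries, through G2 alone. It could hardly have been tested without being higher there, so the 2 G2 p-values add little to the values themselves. Even in G2, WWTR1 was a small part of the coactivator signal. It made up 2.48% ± 0.754 (SD, n = 3) of YAP1 plus WWTR1 per kb there and 0.655% ± 0.433 (SD, n = 3) in SCR.

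**Figure D1:**
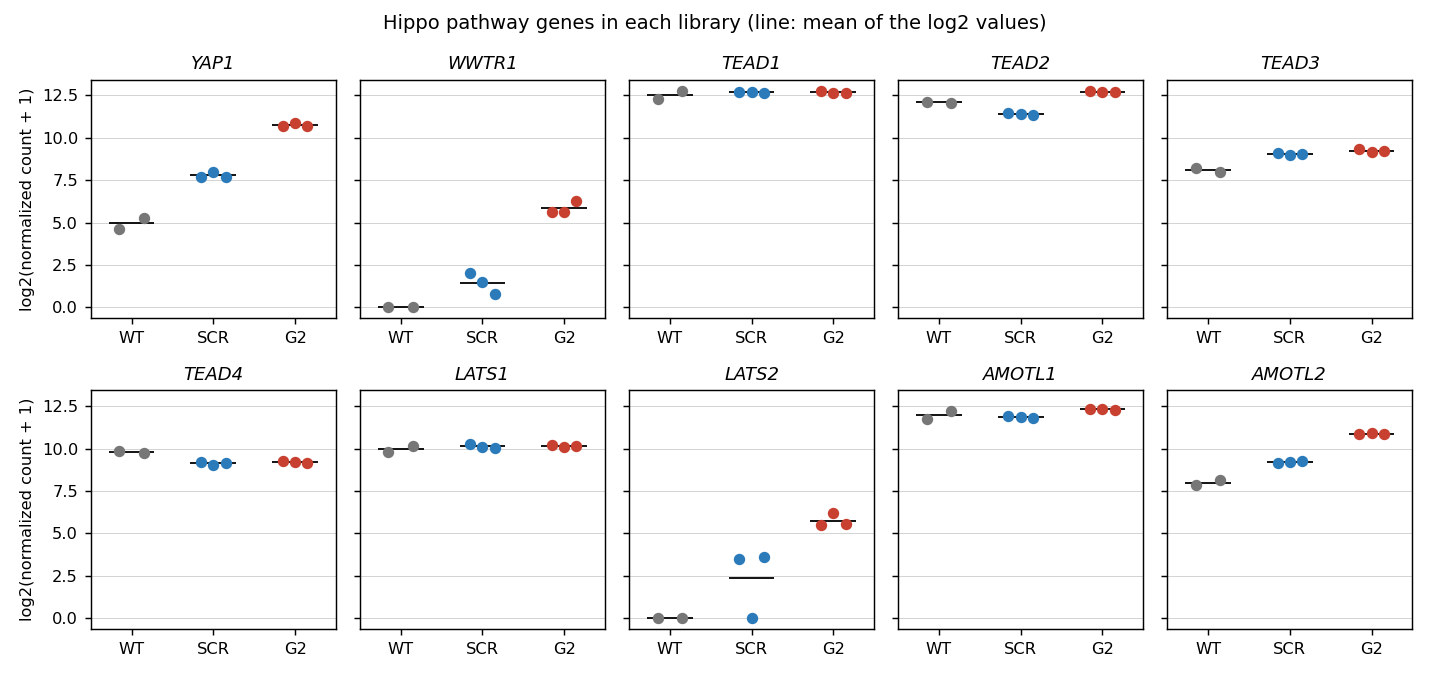
Level of each of the 10 members in every library. The vertical axis is log2(normalized count + 1), 1 point is 1 library, the groups on the horizontal axis are WT, SCR and G2, and the line is the mean of the log2 values of a group. YAP1 and AMOTL2 climb from WT through SCR to G2 without overlap, TEAD1 and LATS1 are level, and WWTR1 and LATS2 leave the bottom of the scale mainly in G2.

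The TEAD factors bring YAP and TAZ to DNA, and each of the 4 followed a pattern of its own. TEAD1 (GSHG0005949, chr11:12674421-12944737) lay at 6879, 6421 and 6430 normalized counts in G2, at 6593, 6749 and 6478 in SCR and at 5034 and 7057 in WT. The lines overlapped, and the spread of WT took in all other libraries. The log2 fold change in G2/SCR was -0.01, with a 95% interval of -0.22 to 0.20, and the differences from WT were not called either.

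TEAD2 (GSHG0023082, chr19:49340595-49362457), a TEAD factor best known from early development, rose in G2 against both controls. It lay at 6942, 6661 and 6602 normalized counts in G2, at 2768, 2678 and 2591 in SCR and at 4494 and 4324 in WT. Unlike YAP1, its order was SCR, WT, G2, with no overlap between lines. G2 was 2.51 times SCR, a log2 fold change of 1.33 (SE 0.05, limma adjusted p = 1.6e-09). It was 1.53 times WT, a log2 fold change of 0.61 (SE 0.06, limma adjusted p = 4.4e-06), which stands just past the 1.5-fold limit and fell to 0.58 and short of it without WT replicate 2. SCR was lower than WT, with a log2 fold change of -0.72 (SE 0.06, limma adjusted p = 5.2e-06).

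TEAD3 (GSHG0037899, chr6:35473597-35497079) separated the edited lines from WT instead. It lay at 635, 564 and 605 normalized counts in G2, at 545, 496 and 527 in SCR and at 297 and 253 in WT. Every edited library was above both WT libraries. Against WT, the log2 value of G2 was higher by 1.13 (SE 0.11, limma adjusted p = 3.6e-06) and that of SCR by 0.93 (SE 0.11, limma adjusted p = 6.1e-05). In G2/SCR it was 0.20, with a 95% interval of -0.01 to 0.41, and was not called.

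TEAD4 (GSHG0008564, chr12:2959330-3040676) was split the same way as TEAD3 but in the other direction. It lay at 605, 583 and 566 normalized counts in G2, at 592, 511 and 563 in SCR and at 921 and 857 in WT. G2 and SCR overlapped and both lay under WT. The fitted log2 fold change came to -0.60 in G2/WT (SE 0.10, limma adjusted p = 0.00022) and -0.68 in SCR/WT (SE 0.10, limma adjusted p = 0.00023), with WT at 1.52 times G2 and 1.60 times SCR. Both sit near the 1.5-fold limit. With all libraries scaled to the same total, the TEAD4 values shrank to -0.42 and -0.40 and the SCR/WT value of TEAD2 to -0.44, and none of the 3 was then called. That scaling moved the median of all genes to 0.19 in G2/WT and 0.28 in SCR/WT from 0.00 and 0.01. With ribosomal RNA genes left out of the totals, the medians were 0.12 and 0.22 and the same 3 values were still not called. Without WT replicate 1 the TEAD4 value in G2/WT was -0.55, and without G2 replicate 3 it was -0.58, again short of the limit.

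**Figure D2:**
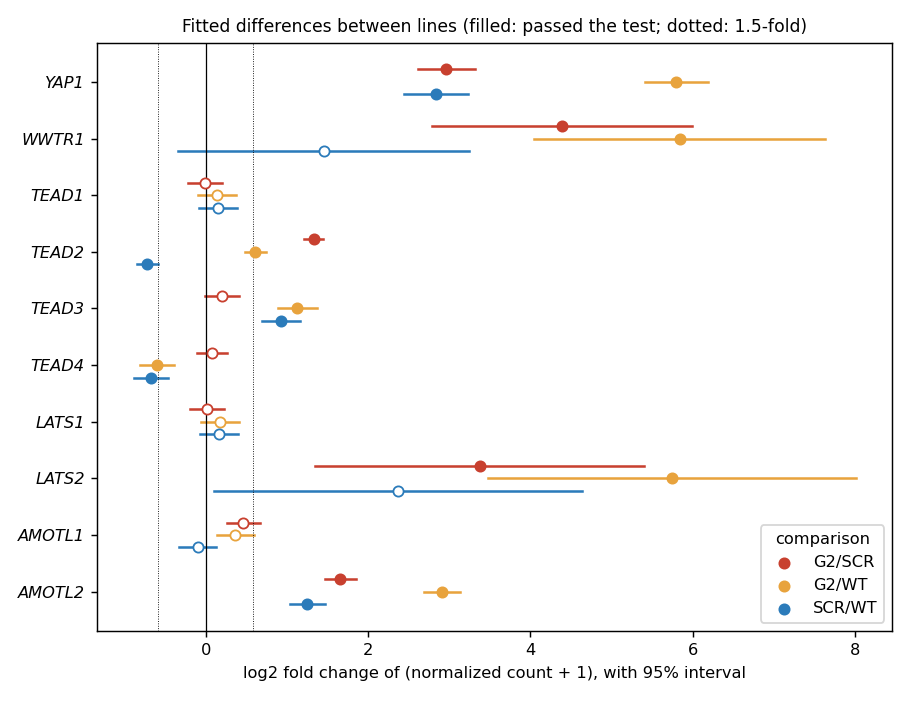
Fitted log2 fold change of each member, on the normalized count plus 1, in G2/SCR, G2/WT and SCR/WT. Bars are 95% intervals, filled points passed the test, open points did not, and dotted lines mark 1.5-fold. The fitted sizes for WWTR1 and LATS2, which were at or near 0 in the controls, depend on the added 1 and are not measured folds.

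Within a library, the makeup of the TEAD family does not depend on how libraries are scaled to each other. Per kb of exon, TEAD2 made up 67.9% ± 0.318 (SD, n = 3) of the TEAD signal in G2. It made up 46.5% ± 0.564 (SD, n = 3) of that signal in SCR and 60.8% and 56.5% of it in the WT libraries. TEAD1 made up 18.3% to 18.7% in G2, 31.1% to 32.9% in SCR and 19.0% and 25.7% in WT, so TEAD2 stood at 3.68 times TEAD1 in G2, 1.46 times in SCR and 2.20 and 3.21 times in WT. TEAD4 held 7.72%, 12.6% and 15.5% in the same order, and TEAD3 held 5.92%, 8.87% and 3.58%. The 3 G2 libraries were compared with the 5 controls for 11 quantities, not all of them shares, by a two-sided exact permutation test. The controls pool the SCR and WT lines, which differ from each other, so its p-values do not compare G2 with either line. The share of TEAD4 was lower in G2 than in every control (exact permutation p = 0.018, adjusted over the 11 p = 0.028). The share of TEAD2 was higher and that of TEAD1 lower than in every control (exact permutation p = 0.036, adjusted p = 0.04 for each), and that of TEAD3 did not pass (exact permutation p = 0.54). The summed TEAD signal per kb is a level and, like YAP1 plus WWTR1 per kb, does depend on that scaling. It ran from 3264 to 3447 in G2, from 1895 to 1984 in SCR and from 2481 to 2570 in WT. The sum was higher in every G2 library than in any control (exact permutation p = 0.018, adjusted p = 0.028).

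The balance of coactivator to TEAD transcripts also differed between the lines. YAP1 plus WWTR1 came to between 268 and 302 per kb in G2, between 32.5 and 39.9 in SCR and to 3.74 and 5.98 in WT. Divided by the summed TEAD signal, that was 0.0841 ± 0.00737 in G2, 0.0182 ± 0.00234 in SCR and 0.00192 ± 0.000579 in WT. The ratio was higher in every G2 library than in any control (two-sided exact permutation test, p = 0.018, adjusted p = 0.028). In all 3 lines the TEAD transcripts outnumbered those of the coactivators. Merged exons of all annotated transcripts were used for length, and a gene that uses a short transcript is given too low a level by this.

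**Figure D3:**
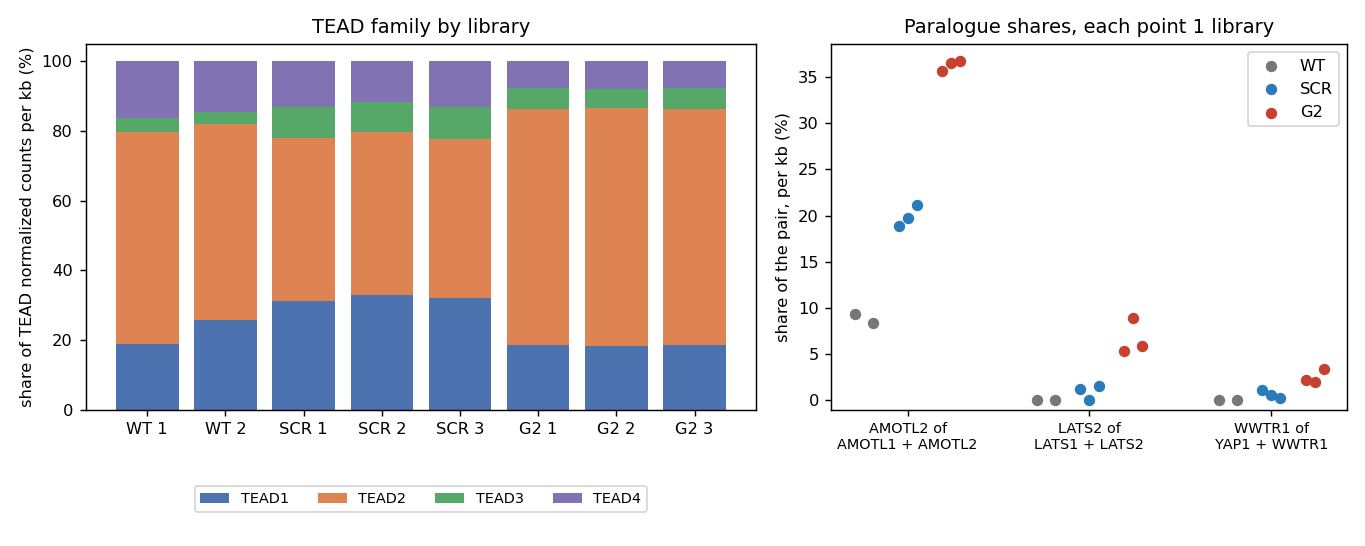
Left, share of each TEAD gene in the summed TEAD signal per kb of exon (percent, 1 bar per library). Right, share of AMOTL2, LATS2 and WWTR1 in the sum of each gene and its paralogue (percent, 1 point per library). TEAD2 takes 67.6% to 68.2% of the bar in G2 and 45.9% to 60.8% in the controls, and all 3 paralogue shares are highest in G2.

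The LATS kinases, which phosphorylate YAP and TAZ, differed from each other. LATS1 (GSHG0038473, chr6:149658153-149718256) lay at 1178, 1097 and 1128 normalized counts in G2, at 1213, 1103 and 1064 in SCR and at 882 and 1138 in WT. The lines overlapped and no comparison was called. The log2 fold change in G2/SCR was 0.01, with a 95% interval of -0.20 to 0.22.

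LATS2 (GSHG0011394, chr13:20973036-21061586) rose in G2 from close to nothing. It lay at 44.2, 71.2 and 46.2 normalized counts in G2, at 10.2, 0 and 11.3 in SCR and was listed at 0 in both WT libraries. The lowest G2 library was above the highest SCR library. In fragments the ratio of G2 to SCR was 7.53, with a 95% counting interval of 3.55 to 18.4, and G2 was at least 5.36-fold higher than WT. Both passed the test (limma adjusted p = 0.0098 for G2/SCR and 0.00059 for G2/WT). As with WWTR1, LATS2 reached the filter through G2 alone, so these p-values add little to the values themselves. SCR/WT was not called (limma adjusted p = 0.098), and passed without SCR replicate 2, the SCR library at 0 (limma adjusted p = 0.003). Per kb, LATS2 was 6.72% ± 1.94 (SD, n = 3) of LATS1 plus LATS2 in G2 and 0.948% ± 0.837 (SD, n = 3) in SCR, so LATS1 remained the main LATS transcript in every library.

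The angiomotin-like proteins bind YAP and TAZ at cell junctions and on actin and help to activate LATS. AMOTL1 (GSHG0006648, chr11:94768342-94878190) lay at 5184, 5211 and 4994 normalized counts in G2, at 3830, 3723 and 3609 in SCR and at 3395 and 4680 in WT. G2 lay above every control library. Its log2 fold change in G2/SCR was 0.46 (SE 0.09, limma adjusted p = 0.0014), with G2 at 1.38 times SCR, which passes on p and not on size. In G2/WT it was 0.36 and was not called, and it rested on which WT library was used. It was 0.60 and passed without WT replicate 2, the higher of them, and 0.13 (limma adjusted p = 0.099) without WT replicate 1.

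AMOTL2 (GSHG0031781, chr3:134355345-134375417) rose in steps like YAP1. It lay at 1855, 1938 and 1873 normalized counts in G2, at 575, 593 and 625 in SCR and at 226 and 277 in WT. No line overlapped another. G2 was 3.16 times SCR, a log2 fold change of 1.66 (SE 0.09, limma adjusted p = 1.9e-08). It was 7.51 times WT, a log2 fold change of 2.91 (SE 0.10, limma adjusted p = 4.4e-10), and SCR was 2.38 times WT, a log2 fold change of 1.25 (SE 0.10, limma adjusted p = 3.5e-06). Per kb, AMOTL2 made up 36.3% ± 0.577 (SD, n = 3) of AMOTL1 plus AMOTL2 in G2, against 18.8% to 21.1% in SCR and 8.39% and 9.34% in WT (exact permutation p = 0.018, adjusted p = 0.028). An unnamed entry that overlaps its 3' end (GSHG0031780, chr3:134351852-134356561) lay at 664 to 700 normalized counts in G2, 166 to 214 in SCR and 83.4 to 130 in WT. The strand setting of the counting was not given in the sources used here, and reads of the overlap cannot be assigned to either entry.

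Over the 10 members, 5 were higher and 0 lower in G2/SCR, where 25.0% of the 18947 genes tested were called and 14.3% were called higher. In G2/SCR 10.7% of all genes were called lower, and edgeR and DESeq2 on recovered reads also gave 5 higher and 0 lower members. G2/WT held 6 higher and 1 lower member, against 28.2% of all genes called, 16.9% higher and 11.3% lower. SCR/WT held 3 higher (YAP1, TEAD3 and AMOTL2) and 2 lower (TEAD2 and TEAD4), against 13.8% called, 8.95% higher and 4.83% lower. WWTR1 and LATS2 reached the filter of a mean of 10 through G2 alone and could hardly have been tested without being higher there. Of the other 8 members, the calls numbered 3 for G2/SCR, 5 for G2/WT and 5 for SCR/WT, where 24.1%, 27.3% and 13.7% of the genes with a control mean of 10 or more were called. Their median log2 fold changes were 0.33, 0.49 and 0.16, and over all genes tested the medians were -0.01, 0.00 and 0.01. YAP1 and AMOTL2 were higher in all 3 comparisons, a pattern of 2.00% of genes tested. LATS2 and WWTR1 were called in both G2 comparisons and not in SCR/WT, as were 13.4% of genes, and TEAD1, LATS1 and AMOTL1 were called in none, as were 60.7% of genes. Libraries did not overlap for 7 members between G2 and SCR, for 8 between G2 and WT and for 6 between SCR and WT, WWTR1 under the floor among the last, where the shares of all genes were 61.8%, 65.4% and 55.3%.

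The order of the members by level per kb showed where YAP1 moved. TEAD2, TEAD1 and AMOTL1 were the highest, in that order, in all 3 lines. TEAD2 stood at 2260 per kb in G2, 899 in SCR and 1479 in WT. In WT the ranges of AMOTL1 and TEAD4 overlapped, so that pair is not ordered. YAP1 was in place 8 of 10 in SCR, at 34.9 per kb, and in WT, at 4.86 per kb. In G2 it was in place 5, at 273 per kb, and its range overlapped those of AMOTL2 above it at 291 and TEAD4 below it at 257. LATS2 and WWTR1 held the last places in each line.

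A list of 17 genes held kinases and adaptors that act upstream of LATS and the LATS-related kinases STK38 and STK38L. All were tested, and 5 were higher and 0 lower in both G2 comparisons, and 0 were called in SCR/WT. That is 29.4% of the list in each G2 comparison, where 14.3% and 16.9% of all genes were called higher. In either direction 25.0% and 28.2% of all genes were called there, and 13.8% in SCR/WT. The share of the list was not tested against these. At an unadjusted limma p under 0.05 with no limit on size, 12 genes of the list were higher and 1 lower in G2/SCR. By that looser rule 12 were higher and 0 lower in G2/WT, and 6 higher and 2 lower in SCR/WT. The share of all genes passing it was not computed, here or for the lists below, so these counts show direction only. TNIK, a kinase of the MAP4K-related group, lay at 3301 to 3386 normalized counts in G2, 529 to 568 in SCR and 454 and 633 in WT, a G2/SCR log2 fold change of 2.60 (limma adjusted p = 1.6e-09). STK3 (MST2), which phosphorylates LATS directly, lay at 1475 to 1498 in G2, 375 to 446 in SCR and 427 and 524 in WT, a log2 fold change of 1.87 (limma adjusted p = 1.4e-08). STK38L, a LATS-related kinase, had a log2 fold change of 1.41 (limma adjusted p = 2.9e-08), and MOB1A, the LATS cofactor, one of 0.89 (limma adjusted p = 1.8e-06). TAOK3 was the other gene called. The paralogues of STK3 and MOB1A did not follow them. In G2/SCR the fitted log2 value was 0.24 for STK4 (MST1), -0.12 for MOB1B and 0.39 for SAV1, the scaffold of STK3 and STK4, none of them called.

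Junction and polarity proteins regulate the kinases or hold YAP directly. Of 19 genes, 18 were tested, and 8 were higher in G2/SCR, 11 in G2/WT and 3 in SCR/WT, with 0 lower in each. Called higher among all genes were 14.3%, 16.9% and 8.95%. At an unadjusted limma p under 0.05 and any size, 1 of the list was lower in G2/SCR, 0 in G2/WT and 1 in SCR/WT. CRB3 was under the filter. PTPN14, which binds YAP and is itself a known YAP target, lay at 624.8, 665.7 and 698.5 normalized counts in G2, at 89.8, 70.4 and 54.4 in SCR and at 63.3 and 78.4 in WT. Its 2 control lines overlapped, and the G2/SCR log2 fold change was 3.22 (limma adjusted p = 2.7e-08), against -0.01 for SCR/WT. WTIP, a LIM protein that inhibits LATS, rose in steps, from 80.4 and 90.6 in WT to between 231 and 271 in SCR and between 1466 and 1642 in G2, a G2/SCR log2 fold change of 2.60 (limma adjusted p = 1.6e-09). Its relative AJUBA rose in the same order, with log2 fold changes of 1.53 in G2/SCR and 0.79 in SCR/WT (limma adjusted p = 1.3e-08 and 4.4e-05). FAT4, an atypical cadherin, gave a G2/SCR log2 fold change of 2.60 (limma adjusted p = 5.5e-09). AMOT, the third angiomotin gene, had one of 0.85 (limma adjusted p = 6.2e-05), so of the 3 angiomotin genes AMOTL1 alone stayed under 1.5-fold in G2/SCR. NF2 and WWC1 (KIBRA), which recruit LATS to the membrane, gave G2/SCR log2 fold changes of 0.19 and -0.23 and were not called. FRMD6 was called against WT, with 0.85 in G2/WT and 0.60 in SCR/WT, and not in G2/SCR, with 0.25.

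The STRIPAK complex removes phosphate from STK3 and STK4. Its 11 genes held 0 calls in G2/SCR and in SCR/WT and 1, SLMAP, in G2/WT. Among all genes tested, 25.0% were called in G2/SCR, 13.8% in SCR/WT and 28.2% in G2/WT. At an unadjusted limma p under 0.05 and any size, 5 of the 11 genes were higher and 1 lower in G2/SCR. By that rule 6 were higher and 3 lower in G2/WT, and 3 higher and 4 lower in SCR/WT. No share of all genes was computed for it. Under the full rule edgeR and DESeq2 gave 0 in G2/SCR too. The VGLL proteins compete with YAP and TAZ for TEAD. VGLL4 was the 1 of 4 that could be tested, at 3815 to 4516 normalized counts in G2, 3733 to 3894 in SCR and 2411 and 2352 in WT. It was higher in both edited lines than in WT with a G2/SCR log2 fold change of 0.11 (limma adjusted p = 0.21). VGLL2 and VGLL3 were listed at 0 in all libraries, and VGLL1 was under the floor.

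Genes known as direct targets of YAP and TAZ were read as a list of 22, of which AMOTL2 and LATS2 are members. Without them, 16 of 20 were tested, and 10 were higher and 0 lower in G2/SCR, 11 higher and 1 lower in G2/WT, and 5 higher and 1 lower in SCR/WT. Among all genes 25.0%, 28.2% and 13.8% were called in these comparisons. At an unadjusted limma p under 0.05 and any size, the whole list of 22 held 14 higher and 2 lower genes in G2/SCR. The lower ones were FJX1 at -0.54 and ARHGEF17 at -0.25, and no share of all genes was computed for that rule. Under the full rule edgeR and DESeq2 gave 0 lower in G2/SCR. CRIM1 passed the filter through G2 alone, and of the other 15 genes 9 were called between G2 and SCR and 11 between G2 and WT, beside 24.1% and 27.3% of all genes with such a control mean. Their median log2 fold changes were 1.18 in G2/SCR, 2.49 in G2/WT and 0.45 in SCR/WT.

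CCN1 (CYR61), a secreted matricellular protein and widely used target, lay at 3368, 3037 and 2651 normalized counts in G2, at 395, 371 and 457 in SCR and at 160 and 128 in WT. It kept the order of YAP1 without overlap, with a G2/SCR log2 fold change of 2.88 (limma adjusted p = 2e-09) and SCR at 2.83 times WT (limma adjusted p = 8.6e-06). NT5E (CD73), a cell-surface nucleotidase, had the same order, at 448 to 501 in G2, 160 to 183 in SCR and 49.7 and 53.6 in WT. IGFBP3, which binds insulin-like growth factors, lay at 5938 to 6244 in G2, 1003 to 1129 in SCR and 719 and 777 in WT, and the G2/SCR log2 fold change was 2.52 (limma adjusted p = 6.1e-11). F3 (tissue factor) changed less, by a log2 fold change of 0.83 between G2 and SCR (limma adjusted p = 0.0022). TGFB2, a growth factor of the TGF-beta family, lay at 155 to 160 in G2, 3.78 to 24.5 in SCR and 10.9 and 18.6 in WT, a G2/SCR log2 fold change of 3.64 (limma adjusted p = 9.2e-05).

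Some targets, among them ones often used as markers, could not be tested, and others were not called higher in G2. CCN2 (CTGF) and FOXF2 were listed at 0 in all 8 libraries, and AXL was under the floor in each. A gene listed at 0 in every library of a table like this may be absent or may not have been counted, and which of these holds was not tested. ANKRD1, a nuclear ankyrin-repeat protein, lay at 31.1, 18.6 and 14.0 in G2 and was listed at 0 in all 5 controls, at least 2.60-fold higher than SCR and at least 2.11-fold higher than WT, but its mean was under the filter. FJX1 fell by 1.18 on the log2 scale in G2/WT (limma adjusted p = 1.4e-06) and by 0.64 in SCR/WT (limma adjusted p = 0.00056). GADD45B, RBMS3, ASAP1 and ARHGEF17 were not called in any comparison.

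**Figure D4:**
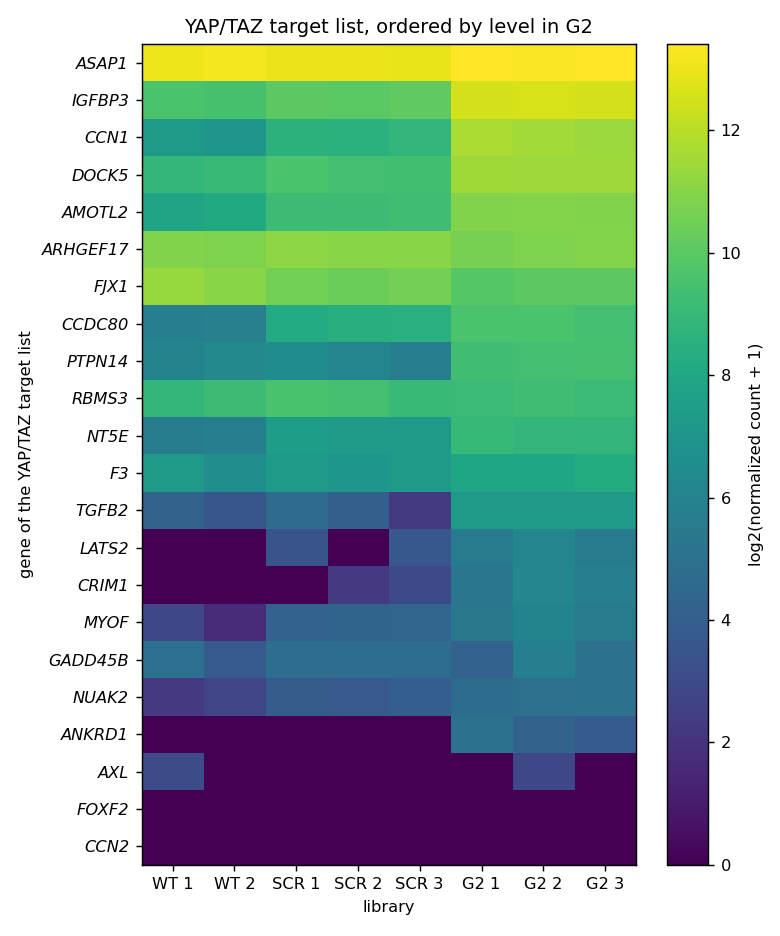
Level of the 22 genes of the YAP/TAZ target list in each library, as log2(normalized count + 1) in colour, with genes on the vertical axis ordered by their mean in G2 and libraries on the horizontal axis. CCN1, IGFBP3, PTPN14 and NT5E are brighter in G2 than in the controls, FJX1 is brightest in WT, and CCN2 and FOXF2 are dark throughout.

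Markers of cell state moved with these genes. Of 12 adrenergic markers, 9 were lower in both G2 comparisons and 1 in SCR/WT, where 10.7%, 11.3% and 4.83% of all genes were. Their summed level was 268190 to 273068 normalized counts in G2, 370809 to 382512 in SCR and 337768 to 350349 in WT. Of 16 mesenchymal neuroblastoma markers, 12 were tested, and 7 were higher and 1 lower in G2/SCR, where 14.3% of all genes were higher. PRRX1, RUNX1 and TBX18 passed the filter through G2 alone, and of the other 9 markers 5 were higher and 1 lower in G2/SCR, 8 higher in G2/WT and 3 higher in SCR/WT. The sums of the list were 239247 to 244389 in G2, 112367 to 119571 in SCR and 81997 to 93948 in WT, carried mostly by VIM. MEOX1 and MEOX2 were listed at 0, and FN1 was under the floor. Of 8 fibroblast markers 6 were higher in both G2 comparisons and 3 in SCR/WT, where 14.3%, 16.9% and 8.95% of all genes were, with sums of 128819 to 131285, 28061 to 28442 and 25512 to 27175. Among markers of other cells, SOX10 (Schwann cells), PECAM1 (endothelium), KRT5 and KRT14 (epithelium) and PTPRC and CD3E (leukocytes) were at or under the floor in all lines. Their sums in G2 were at most 267 for the Schwann, 135 for the epithelial and 84.7 for the endothelial list. The leukocyte list reached 764 in G2 and 173 in the controls, almost all of it from CD68. The part of the mesenchymal and fibroblast genes in the values of YAP1, AMOTL2 and the targets was not tested.

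The genes most like YAP1 and WWTR1 across libraries were picked by Pearson's r of log2(normalized count + 1) over the genes that averaged 100 or more. The 8 libraries form 3 lines, so r mostly records the order and spacing of the lines. For YAP1 the 5 were HS3ST5, DKK2, PALM2AKAP2, PLAU and GJA1, with r from 0.997 to 0.999, and 3.99% of 13064 genes had r above 0.95. GJA1, the gap junction protein connexin 43, had means of 17985 normalized counts in G2, 1267 in SCR and 59.2 in WT. DKK2, a secreted modulator of Wnt signalling, had means of 15522, 2612 and 404. PLAU, the urokinase-type plasminogen activator, had means of 494, 55.5 and 10.2. For WWTR1 they were TPP1, SIRPA, KIAA0319L, FAM111A and BAALC, with r from 0.994 to 0.995, and 6.26% of 13065 genes had r above 0.95.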

How the data were processed

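Polyadenylated RNA of 8 SH-SY5Y libraries was sequenced as paired ends from stranded libraries. The authors mapped reads to hg38 with STAR 2.7.5a, counted them with featureCounts (Subread 1.5.0) on FAST DB annotations and normalized them with DESeq2. The deposited signal is therefore a normalized count for each gene, not scaled to gene length. Groups came from the titles in the labels, and 0 columns were left unassigned.

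Because the values are not raw counts, limma 3.58.1 (R 4.3.3, eBayes with a trend) was fitted to log2(value + 1) of all 8 libraries with a mean per line, over the 18947 genes that averaged 10 or more. Dividing each library by its step, the value of 1 read (0.756 to 1.24), gave whole reads for 100% of values within 0.1. The step of WT replicate 2 is too near 1 for this to be checked, so edgeR 4.0.16 and DESeq2 1.42.0 were run on recovered reads for G2/SCR only, as alternatives. They called 4850 and 4739 genes, and limma called 4729. Most small counts were multiples of 3, and a line was taken to be at the floor when no library passed 9 recovered reads, about 3 fragments. Intervals and floors cover counting error only. Single quantities were compared with exact permutation tests in Python 3.11.15. The script for the fit was tested on simulated data. Exon lengths came from the GENCODE annotation and promoter windows from RefSeq (GRCh38.p14).

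The members and gene lists were chosen with earlier results of these data known. The genes named were all members, pathway genes fixed by name, up to 3 called genes a list with the largest G2/SCR change and a mean of at least 100, and the 5 genes most like YAP1 and WWTR1. Other genes named were chosen after their values were seen: TAOK3, SLMAP, CRB3, CRIM1, FJX1, FOXF2, VGLL1, VGLL2, GADD45B, RBMS3, ASAP1, ARHGEF17 and the markers. Alternatives were other pseudocounts, filters, call rules, scalings, variance models, sample subsets, replicate blocks and each library left out.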

Additional observations from a re-analysis of the deposited data

How the results depend on the processing

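Of 584 alternative values of the members' log2 fold changes, 554 kept their direction and side of the threshold, 9 were no longer called, 3 became called and 18 changed sign, each of these 18 not called in either case. With all libraries scaled to the same total, AMOTL1 was 0.18 in SCR/WT, LATS1 -0.079 and TEAD4 -0.014 in G2/SCR, and without ribosomal RNA genes they were 0.11, -0.079 and -0.014. With the replicate block by library name number TEAD1 was 0.083 in G2/SCR. Leaving out each library, AMOTL1 ran from -0.33 to 0.13 in SCR/WT. LATS1 ran from -0.029 to 0.066 in G2/SCR, -0.0048 to 0.36 in G2/WT and -0.016 to 0.35 in SCR/WT. TEAD1 ran from -0.040 to 0.0098, from -0.10 to 0.38 and from -0.095 to 0.39. WWTR1 in SCR/WT became called without a variance trend, and the TEAD2, TEAD4, AMOTL1 and LATS2 values stand beside their results. Of 130 alternative counts, 125 were within 1.5 times the reported count. With a mean of at least 100, 3 members were called in G2/SCR, since WWTR1 and LATS2 were no longer tested, and 9 targets in G2/WT. In SCR/WT a 2-fold limit left 2 members called, and 3 stayed called with all libraries scaled to the same total, with or without ribosomal RNA genes. The variant without ribosomal RNA genes was chosen after seeing the data. With the same total, 76.4% of called genes were higher in G2/WT and 91.3% in SCR/WT, against 59.8% and 64.9% as reported.

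Leaving out each library in turn gave 5 members in G2/SCR, 6 to 7 in G2/WT and 5 to 6 in SCR/WT, and 11 to 13, 14 and 6 to 7 targets. With the replicate number of the titles as a block, 5, 7 and 5 members and 12, 14 and 6 targets were called, and the block by the number in the library names gave the same counts. Deviations of libraries with the same title number correlated at -0.173 to 0.147, and 2 of 7 pairs passed 0.1, as did 3 of 14 other pairs. For the library name numbers the range was the same, and 2 of 4 pairs passed 0.1, as did 3 of 17 others. So few pairs cannot settle whether either number pairs the samples. WWTR1 and LATS2 rest on few reads, and their fitted sizes follow the pseudocount. WT has 2 libraries.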

Other observations

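Within 2 Mb of YAP1, 10 other genes were tested, and their median log2 fold change was 0.44 for G2/SCR, 0.35 for G2/WT and 0.04 for SCR/WT. Of these 10, 2 were higher and 3 lower in G2/SCR, where 14.3% of all genes were higher and 10.7% lower. PDGFD and ARHGAP42 were the 2 higher genes, with log2 fold changes of 1.504 and 3.55. The 3 lower ones were CEP126 at -1.19, DCUN1D5 at -0.60 and an unnamed entry at -1.48, while BIRC2 at 0.44 and TMEM123 at 0.45 were not called. These genes were named after their values were seen. Within 2 Mb of AMOTL2, 25 genes had medians of 0.28 for G2/SCR and 0.08 for G2/WT, and within 2 Mb of LATS2, 25 genes had medians of 0.14 and 0.12. Around WWTR1, 18 genes had medians of 0.09 and -0.09, and around TEAD2, 114 genes had medians of -0.03 and -0.19. Copy number was not measured in these libraries.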
